A study of Mus musculus with 7 samples.

Results

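The group described here was the macrophages taken from GL261 tumours, which made up 4 of the 7 arrays of the study and were chosen by their sample titles. GL261 is a mouse glioma cell line. It was injected into the brains of C57/Bl6 mice that had received bone marrow carrying GFP, a green fluorescent protein, and the tumours had 21 days to grow. Tissue was digested with papain, macrophages were sorted by GFP and the surface protein F4/80, and total RNA was hybridised as biotin-labelled cRNA to Affymetrix mouse arrays. All 4 samples share this strain, marrow and tumour. The labels do not give the age or sex of the mice, whether the sort took GFP-positive cells only, or whether the arrays came from separate mice, so the spread between arrays may be technical. Normal brain samples of the study were not used, and every statement is about levels within this group. With 1 group there is no test between groups, and all values are descriptions.

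Macrophages of a brain tumour come from microglia, which settle in the brain before birth, and from monocytes that leave the blood and mature in the tissue. Both kinds carry F4/80 and the receptor for the growth factor Csf1, engulf debris, present antigen and release chemokines. Mouse gliomas are known to be rich in such cells. In mice with GFP-labelled marrow, cells that descend from the graft fluoresce.

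Each array gave a signal, a linear intensity made by the MAS5 algorithm, for 45101 probe sets. Of these, 34945 carried 1 gene symbol and stood for 18193 genes. Where a gene had several probe sets, the one with the highest mean was taken. Signals are given in the order of replicates 1 to 4, or as the lowest to the highest of the 4 where a range stands in parentheses. The spread is the SD over the 4 arrays of log2(signal + 6). A percentile or rank places a gene's mean among the 18193 genes. It orders probe set signals and not amounts of transcript, because probe sets bind their targets with different strength and array signals cannot be scaled by length. Taking the highest probe set moves all levels upward. Background on an array was the level under which 95% of 27 control probe sets for unspiked bacterial genes fell, a signal of 13.2, 12.3, 14.1 and 18.3. Above it on all 4 arrays were 11704 genes, 64.3% of all, and 2473 genes were above it on none. The mean was above the highest background level in 12772 genes, called measured below. A gene can pass this filter through a high value on 1 array. The trimmed mean signal was the same on every array. The number of arrays limits the precision. Arrays 3 and 4 gave higher signals than arrays 1 and 2 at the top of the range, in genes and technical controls alike. In several gene lists array 2 was the highest or the lowest array for most members. Both patterns are measured after the levels.

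The macrophage identity of the sort was borne by the marker genes. Of 15 pan-macrophage genes, all 15 were above background on all 4 arrays, against 64.3% of all genes. In the top 5% of genes lay 12 of them, with a median percentile of the list of 98.6 against 50 for all genes. Adgre1, which encodes the sorting marker F4/80, had signals of 6716, 6094, 6240.4 and 5965. These 4 values lay close together, with an SD of 0.074, and placed the gene at rank 524. Csf1r, the receptor for Csf1, had signals of 9956, 9415, 14872 and 14144 and rank 88. Cd68, a lysosomal glycoprotein of phagocytes, had 7347, 7476, 9612 and 9460.3. For both, arrays 3 and 4 were higher than arrays 1 and 2. The cathepsin gene Ctss stood at rank 17, the lysosomal membrane gene Laptm5 at rank 31, and the signalling adaptors Fcer1g and Tyrobp at ranks 44 and 66. The leukocyte phosphatase Ptprc, also called CD45, had signals of 6727, 6578, 7683 and 9000.4.

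The 3 lowest markers of that list were Itgam, Spi1 and Mertk. Itgam, which encodes the integrin CD11b, had signals of only 178, 321, 185 and 249 on its single named probe set, at percentile 53.7. Spi1, the lineage factor PU.1, had 1743, 1740.1, 1890.0 and 1457 at percentile 82.4. The efferocytosis receptor Mertk had 5594, 2537, 5329.8 and 5753. Array 2 gave the highest value of Itgam and the lowest of Mertk.

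**Figure D1:**
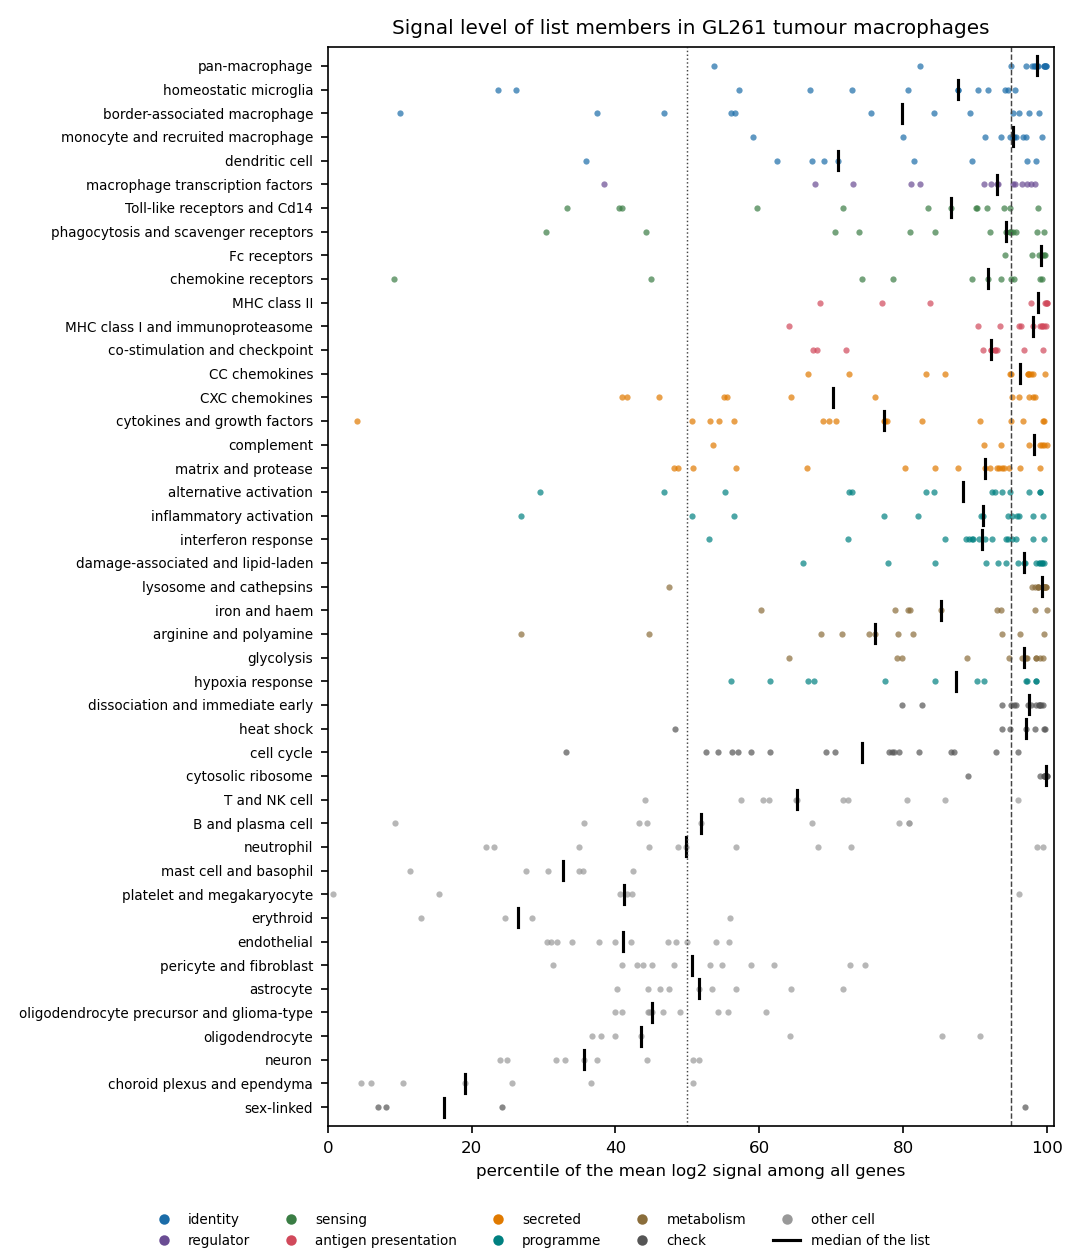
Percentile of the mean log2 signal among all 18193 genes (horizontal axis) for the members of 45 gene lists (rows). Each point is 1 gene, colours give the role of the list, black bars give list medians, and the lines mark the percentiles 50 (dotted) and 95 (dashed). The medians of the lysosome, Fc receptor and MHC class II lists lie at 99.3, 99.1 and 98.8, and those of the neuron and endothelial lists at 35.7 and 41.1.

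Genes of the different macrophage origins were present side by side. In bulk RNA, fewer cells of a type and less RNA per cell cannot be told apart, so none of these levels gives a share of cells. The homeostatic microglia list had a median percentile of 87.6 and 1 of 13 genes in the top 5%, Olfml3, a secreted matrix protein of microglia, with signals of 4880.5, 5214, 5177 and 4396. Tmem119, a membrane protein used to mark microglia, had 3000.1, 3388, 3137 and 2570.4. The fractalkine receptor Cx3cr1 ranged from 2763 to 3968. P2ry12, the purinergic receptor through which microglia sense nucleotides, stood lower at 715, 1334, 762 and 1041, percentile 72.9. Array 2 held the highest signal of these 4 genes, and of 9 of 11 measured genes of the list. Among all measured genes it was the highest array in 23.9%. Sall1, a factor that defines microglia, had signals of 0.858, 51.8, 57.6 and 0.611, above background on arrays 2 and 3 only.

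The list of monocytes and recruited macrophages lay higher, at a median percentile of 95.2, with 6 of 11 genes in the top 5%; without array 2 this count was 4. Ccr2, the receptor that brings monocytes out of the marrow, had signals of 4045, 5916, 4906 and 4766. Its level depended on the probe set. The others had mean log2 values of 8.76, 8.85 and 8.53 against 12.25, with SDs of 0.90, 1.35 and 1.18 against 0.22. All were highest on array 2. Plac8, abundant in monocytes, had 4483, 6594, 6067 and 6274. The galactose-binding lectin Lgals3 had 9863, 8841, 12668 and 12579. Array 2 again gave the highest value of Ccr2 and Plac8, while Lgals3 was lowest there. The integrin Itga4, which is known to be scarce in resident microglia, had 5109, 5021, 4464 and 5432. Vcan, a proteoglycan of classical monocytes, had 218, 1187, 222 and 303, with array 2 alone well above the others.

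Border-associated macrophages line the meninges and vessels. Their list had a median percentile of 79.9, with 3 genes under the median of all genes, and 4 of 12 genes were in the top 5%. High were Ms4a7 (7854 to 11011), the mannose receptor Mrc1 (4728 to 7725; SD 0.33), the chemokine Pf4 (4828 to 5904) and the scavenger receptor Stab1 (4488 to 5242). Low were Cd163 (66.2 to 168) and Lyve1 (15.6 to 75.6), which mark perivascular cells, and Cd209f was above background on no array. The members thus did not stand at 1 level.

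Most lineage factors were high in signal, and the median SD of the list was 0.25. Of 15 transcription factors of the list 6 were in the top 5%, led by Cebpa (6675 to 9145), Bhlhe40 (5325 to 9220.3) and Irf8 (4966 to 7451). Klf4, a factor of monocyte maturation, had 4609.5, 4778, 4957 and 4810.0 with an SD of 0.043. Tfec, a relative of Mitf, was the exception with 2283, 544, 2213 and 2096 and an SD of 1.00, since array 2 was far below the rest. Mitf itself had 4234, 3478, 3816 and 3877. Bhlhe41, known from microglia and tissue macrophages, was low at 30.3, 99.6, 32.3 and 22.7.

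Receptors that sense microbes and debris differed by family. Fc receptors, which bind antibody, had 5 of 6 genes in the top 5%, among them the activating Fcgr3 (9219.9 to 15329.6) and the inhibitory Fcgr2b (7512 to 13445). Toll-like receptors lay lower, and the highest genes of that list were the co-receptor Cd14 (7715 to 9158), Tlr1 (3611 to 5649) and Tlr2 (3642 to 4920.0). Tlr4, the endotoxin receptor, had 1216, 1078, 591 and 704, with arrays 1 and 2 above arrays 3 and 4. Tlr5, Tlr8 and Tlr9 had means under the median of all genes.

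Of the phagocytic receptors, Trem2, which binds lipids, had 3972, 4183, 4569 and 4653, with an SD of 0.11. Axl, which recognises dying cells through a bridging protein, had 4711, 4771, 4658 and 3985, while Timd4 (35.9 to 124) and Marco (7.35 to 37.3), found on other tissue macrophages, were low. Among 11 chemoattractant receptors the highest were Cxcr4 (8248 to 13283) and the complement C5a receptor C5ar1 (8128 to 11842). Cxcr2, a receptor of neutrophils, stood at 29.9, 180.3, 105 and 90.7 and Ccr3 was above background on 1 array. Array 3 gave that value of Ccr3.

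Antigen presentation gave some of the highest signals on the arrays. Of 8 class II genes 5 were in the top 5%, and 4 of them were among the 100 highest means. The invariant chain Cd74, which guides class II molecules to the endosome, had signals of 14262, 13562, 23316 and 24385 (rank 8). The class II chains H2-Aa (13542 to 22837) and H2-Eb1 (12006 to 19178) followed at ranks 13 and 28. In all 3 genes the arrays fell into 2 levels, 1 and 2 below 3 and 4. Ciita, the coactivator of class II genes, had 1104, 1013, 1562 and 1205, at percentile 77.1, and H2-Ob, a modulator found in B cells, had 731, 1291, 720.5 and 351. H2 genes are close relatives and their probe sets may share target sequence, so single values are uncertain.

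The promoters of H2-Aa and H2-Eb1 are shown because both genes stood at the top of the ranking together. The windows hold the 250 bases before the RefSeq start in GRCm38.p6, H2-Aa at chr17:34287824-34288073 on the minus strand and H2-Eb1 at chr17:34305617-34305866 on the plus strand. Capitals mark CTGATTGG, the core of the Y box, an element known from class II promoters, which was searched on both strands. It ended 43 bases before the start in H2-Aa and 54 bases before it in H2-Eb1, and 3.83% of 32851 promoter windows of this length held it. The match is a description of the letters only.
H2-Aa: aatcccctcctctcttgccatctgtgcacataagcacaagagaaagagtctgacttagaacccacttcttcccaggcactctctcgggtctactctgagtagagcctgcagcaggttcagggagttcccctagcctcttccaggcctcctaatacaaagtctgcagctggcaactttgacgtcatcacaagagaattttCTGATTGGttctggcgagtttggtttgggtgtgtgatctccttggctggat
H2-Eb1: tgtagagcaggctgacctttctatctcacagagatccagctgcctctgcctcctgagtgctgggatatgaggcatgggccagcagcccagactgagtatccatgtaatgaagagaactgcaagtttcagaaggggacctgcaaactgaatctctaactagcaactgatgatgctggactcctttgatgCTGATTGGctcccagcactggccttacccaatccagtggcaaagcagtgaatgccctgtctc

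Class I presentation was high as well, with 8 of 11 genes in the top 5%. B2m, the light chain of class I molecules, had 12373, 12978, 20249.7 and 19534, and arrays 3 and 4 were again the higher pair. The heavy chain H2-K1 (9943 to 15927) and the proteasome activator Psme1 (7504 to 12032) followed, while the peptide transporter Tap2 stood at 549.5, 586, 523 and 465, the lowest of the list. Among the genes of co-stimulation and inhibition, all 11 were above background on every array, against 64.3% of all genes. The phagocytosis checkpoint Sirpa stood highest (9908 to 13469). Cd274, which encodes PD-L1, had 5650.3, 4841, 6111 and 7047, lowest on array 2. Its relative Pdcd1lg2 was lower at 855, 373, 752 and 900.0, and Cd80 (501 to 1031) was lower than its partner Cd86 (2304 to 4141) in signal on each array.

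CC chemokines, which draw in monocytes and lymphocytes, had 7 of 12 genes in the top 5%. Ccl3, an inflammatory chemokine, was highest with 10364, 11340.4, 16336 and 16009, followed by Ccl6 (5419 to 9443) and Ccl4 (5373 to 8908). The monocyte attractants Ccl2 (3010.0 to 5744) and Ccl12 (4689.6 to 7528) were each lowest on array 1. Ccl8, another attractant of monocytes, had 7814, 2489, 10158 and 10257. Ccl24, which attracts eosinophils, had 976, 67.4, 1475 and 1595, with an SD of 2.11. In both, array 2 lay far below the other 3. Ccl17, a ligand of Ccr4, had 1042, 995, 3329.7 and 2923, with arrays 1 and 2 both well below 3 and 4.

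CXC chemokines split into high and low members. Cxcl9, which is induced by interferon gamma and attracts T cells, had 8579.8, 2376, 11463 and 11745, with array 2 far below the other 3. Its relative Cxcl10 had 4412, 4177, 5534 and 4715 and showed no such gap. Cxcl16 (5975 to 9484) and the neutrophil attractant Cxcl2 (4995 to 8807) were high, while Cxcl1 (218 to 290.0) and Cxcl3 (209 to 374) were not. Cxcl13, a B cell attractant, had 104, 14, 119.7 and 35.7.

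Among 17 cytokines and growth factors 4 were in the top 5%. Tgfbi, a matrix protein induced by TGF-beta, was among the highest (9551 to 14759). The inflammatory cytokine Il1b had 8929, 9853, 14074 and 13499, and Il1rn, its antagonist, stood lower (5067 to 6648). Lower than these in signal were Tnf (1011 to 1458), Il6 (182 to 618) and Il10 (189 to 290.3), and Il12a was above background on no array. The growth factor Igf1 (2466 to 3911) lay between Il1rn and Tnf. The range of the growth factor Vegfa (866 to 1581) held that of Tnf. Arrays 3 and 4 were the higher pair for Igf1 and the lower pair for Vegfa.

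Complement genes were led by the 3 chains of C1q, the first component of the classical pathway. C1qb stood at rank 10 with 13529, 13652, 21069 and 25680.1, C1qc at rank 80 and C1qa at rank 137. Cfb, a protease of the alternative pathway, had 7169, 4729, 7117 and 7576, lowest on array 2. C2, the protease of the classical pathway, stood far lower at 238, 299, 138 and 258.

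Matrix genes and proteases had a median percentile of 91.4, with 2 of 17 in the top 5%. Without array 2 that count was 5. The 2 were the transglutaminase Tgm2 (8153 to 11707) and the protease inhibitor Timp2 (4991 to 5816). The elastase Mmp12 had 5880.3, 1811, 5827 and 6448. The collagenase Mmp13 had 5284, 1267, 4299.9 and 5202. The disintegrin protease Adamdec1 had 6995, 662, 7031 and 6970.3. In these 3 genes replicate 2 lay far below the others, whereas Mmp14 (3380.4 to 4436) did not show the gap.

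Genes of the textbook activation programmes were mixed. For alternative activation, the arginine-degrading enzyme Arg1 had 5693, 907, 7544 and 6724, an SD of 1.44, with array 2 alone low. Chil3 (3898 to 5876) and Clec7a (7438 to 11148) were high without that gap, and Retnla (117 to 456) and Chil4 (8.37 to 22.7) were low. For inflammatory activation, Ptgs2, the inducible cyclooxygenase, and the signalling inhibitor Socs3 were in the top 5% (4721 to 6788 and 3639 to 5904). Nos2, which makes nitric oxide, had 32.7, 3.67, 46.6 and 3.7 and was above background on arrays 1 and 3 only. The lists held 3 of 14 and 5 of 13 genes in the top 5%.

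Interferon-response genes were measured throughout, 16 of 16 above background on every array, against 64.3% of all genes. The median percentile of the list was 91.0. Ifitm3, which blocks virus entry, had 8718, 12568, 14614 and 14731, lowest on array 1, and Bst2, which tethers virus particles, was next (6076 to 8725). Rsad2 (3950.1 to 6563) and Irf7 (3616 to 4817) were highest on array 2, as were 10 of 16 genes of the list, against 23.9% of all measured genes. The guanylate-binding genes Gbp2 (3218 to 5421) and Gbp3 (2739 to 3893) were lowest on that array.

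Lipid handling and lysosomes were prominent. The list known from damage-associated and lipid-laden macrophages had 9 of 15 genes in the top 5%. It was led by the fatty acid binding gene Fabp5 (8907 to 15708), Lgals3 and the lipid carrier Apoe (7933 to 13537). Gpnmb, a glycoprotein of phagocytes, had 5058, 5909, 6491 and 6319. The cholesterol exporter Abcg1 (5916 to 6324) was at a similar signal and the cystatin Cst7 (459 to 723) lower. Of 15 lysosomal genes 14 were in the top 5%, including Ctsb (10688 to 16174), the inhibitor Cst3 (10982 to 17920.5) and the saposin precursor Psap. The exception was Ctsk, the cathepsin of osteoclasts, with 57, 227, 129.6 and 109. Ferritin heavy chain Fth1 stood at rank 3 with 14657, 14733, 23181 and 26018. The haem-degrading enzyme Hmox1 had nearly equal signals of 4032, 4002, 4033 and 3898.

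Glycolytic genes had a median percentile of 96.8 and 7 of 12 in the top 5%. Aldoa (8386 to 14544), Pkm (7729 to 10755) and Ldha (6557 to 9825) were highest in signal, and of the hexokinases Hk2 (3729.7 to 5433) gave more signal than Hk1 (245 to 918). The 12 genes of the hypoxia response had a median percentile of 87.3, 4 of them in the top 5% and none under the median of all genes. Hif1a, the oxygen-sensitive factor, had 5484, 5661, 6941 and 7268. Slc2a1, the glucose transporter (5414 to 7122), and Pgk1, a glycolytic enzyme (6601 to 9435), were high among its targets, and Car9 (366 to 507) and Egln3 (188 to 456) lower. In polyamine metabolism, Sat1 (9492 to 14732) and Odc1 (5023 to 5956) were high. Slc7a2, which imports arginine, had 1527, 171, 1040.3 and 907 and shared the low array 2 with Arg1.

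Immediate early genes, which enzymatic digestion and sorting are known to induce, were among the highest. Of 14 genes 10 lay in the top 5%, at a median percentile of 97.5. The transcription factor Fos had 9413, 8795, 14462 and 14086, followed by the phosphatase Dusp1 (8023 to 12618) and the transcription factor Egr1 (6847 to 12324). Array 2 gave the lowest value in 11 of the 14, against 25.2% of all measured genes and 46.9% of those at a signal of 5000 and above. The mean deviation of the list on that array was -0.28 (log2) as deposited and -0.13 after quantile normalization, which gives all arrays 1 distribution of signals. Of 7 heat shock genes 4 were in the top 5%, led by Hspa8 (9868 to 16516) and Hspa1b (8892 to 16335). These genes stood high beside Il1b, Ccl3 and Ccl4, which dissociation is also known to raise in microglia, and the part of handling in those levels was not tested.

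Cell cycle genes had a median percentile of 74.2, and 17 of 18 were above background on all arrays, against 64.3% of all genes. Mki67, made by dividing cells, had 1719.9, 2375, 1364 and 657. Birc5, which acts in mitosis, had 1459, 3616, 2467 and 1995, and the replication clamp Pcna was the highest of the list (4751 to 5791). Array 2 was highest in 13 of the 18, against 23.9% of all measured genes.

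Lists of other immune cells lay lower than the pan-macrophage list. Median percentiles were 65.2 for T and NK cells, 51.9 for B and plasma cells and 49.9 for neutrophils. For T and NK cells, all 11 genes were above background on every array, against 64.3% of all genes. They ranged from percentile 44.2 to 95.9, and their summed signals were 12394, 8942, 16581 and 16131. Gzma, a granule protease, was the highest (3569 to 6965), and Nkg7, of cytotoxic granules, was lower (989 to 1825). Cd3d, a subunit of the T cell receptor, had 854, 360.2, 1352 and 1555. The sums and all 3 genes were lowest on array 2. For neutrophils, the calcium-binding S100a8 (6989 to 9396) and S100a9 (9176 to 14433), which monocytes also make, were in the top 5%, while the elastase Elane was above background on no array. The granule protein Ngp had 61.8, 583, 32.7 and 35.4, high on array 2 alone. For B cells, Ms4a1, which encodes CD20, had 106, 269, 26.9 and 26.9. Jchain, Cd22 and Ighm stood highest in that list, at percentiles up to 80.9.

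Vessel and blood genes differed by array. The 12 endothelial genes had summed signals of 1007, 2777, 1042 and 897, and none was in the top 5%. Cldn5, a tight junction protein, had 21.9, 487, 28 and 38.5, and Flt1, a receptor for Vegfa, was highest of the list (151 to 678), both highest on array 2. Array 2 was highest in 7 of the 12 genes, against 23.9% of all measured genes. Above background on all arrays were 7 of the 12, against 64.3% of all genes. Vwf, the platelet-binding factor of vessels, had 338, 302, 168 and 172, highest on array 1, and the adhesion molecule Pecam1 had 129, 156, 208 and 147, highest on array 3. The 4 erythroid genes summed to 76.9, 4498, 133 and 200.0, almost all of it on array 2 from Hbb-b2. Alas2, of haem synthesis in red cells, had 1.67, 246, 1.07 and 2.97, above background on array 2 alone. Hba-a1, an alpha globin, was above background on no array (0.898 to 10.4). A second probe set of Hbb-b2 gave log2(signal + 6) values of 2.96, 4.32, 2.76 and 2.83, highest on array 2 but close to background there. Hbb-b2 belongs to a family of near-identical globin genes, and its value is uncertain.

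Glial and neuronal lists had medians near or under that of all genes. Median percentiles were 51.7 for astrocytes, 45.1 for oligodendrocyte precursor and glioma-type genes, 43.6 for oligodendrocytes and 35.7 for neurons. Above background on all arrays were 8 of 9 astrocyte, 5 of 7 oligodendrocyte and 4 of 9 neuronal genes, against 64.3% of all genes. Of the precursor and glioma-type genes it was 11 of 11. Among the astrocyte genes the sums were 1837, 2474, 3635 and 3164, and the water channel Aqp4 had 11.3, 74.3, 201 and 215. Sums for the 9 neuronal genes were 281, 609, 1286 and 778, with Snap25, of synaptic vesicle release, at 30.2, 199.5, 633 and 200.0. Both sums were lowest on array 1 and highest on array 3. The highest markers of brain cells were the myelin genes Cnp (2728 to 3262) and Mbp (1390.4 to 3271); both have forms known outside myelin. The transcription factors Sox2 (216 to 364) and Olig1 (185 to 306), known from neural and glial precursors, were measured, and which cells carried them was not determined.

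At the top of the ranking, 31 of the 100 highest means were ribosomal protein genes, 29 were members of the other gene lists, and 72 genes were among the 100 highest on every array. Apart from ribosomal, elongation factor and unnamed loci, the order began with Lyz1, the actin-binding peptide gene Tmsb4x, Fth1, the lectin Lgals1, Cd74, C1qb, H2-Aa, Actb, Ctss and B2m. Tmsb4x had 14037, 14779, 24687 and 25639. Neighbours in this order differed by less than their spread over the arrays. The first place of Lyz1 depended on the probe set. Signals of 14987, 15754, 23535 and 24464 came from a probe set whose name marks probes that may bind other transcripts, and its other probe set of that kind was close to it. A further one without that mark gave log2 values of 5.47, 5.35, 5.52 and 6.04. Lyz2, the closely related lysozyme of macrophages, had 10106, 10749, 17364 and 17525 at rank 50.

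Genes were more alike over the arrays the higher their signal, up to a point. The median SD of the 12772 measured genes was 0.33. By mean signal it was 0.67 under 100, 0.44 from 100 to 500, 0.26 from 500 to 2000, 0.18 from 2000 to 5000 and 0.24 at 5000 and above. Pairs of arrays correlated at Pearson r = 0.942 to 0.955 and Spearman rho = 0.959 to 0.969 across measured genes, which are not independent replicates. Between 12.5% and 16.5% of measured genes differed over 2-fold in a pair.

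At the top of the range the arrays stood at 2 levels. The 789 genes at a signal of 5000 and above had median deviations from the 4-array mean of -0.19, -0.19, 0.17 and 0.21 (log2). The hybridisation controls moved the same way, with medians over 18 probe sets of 3273, 3303, 5299 and 4804, as did the 18S control with 9214, 10727, 18695 and 19721. After quantile normalization the median SD of the class was 0.11 in place of 0.24. The SD of Csf1r was 0.34 as deposited and 0.051 after quantile normalization, and that of Cd74 0.45 and 0.062. Adgre1 went the other way, from 0.074 to 0.23. Whether the 2 levels lie in the samples or in the scaling of the arrays was not tested. The ratio of 3' to 5' signal, a sign of RNA integrity, was 1.52, 1.39, 1.36 and 1.40 for Actb and 1.64, 1.64, 1.82 and 1.89 for Gapdh.

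**Figure D2:**
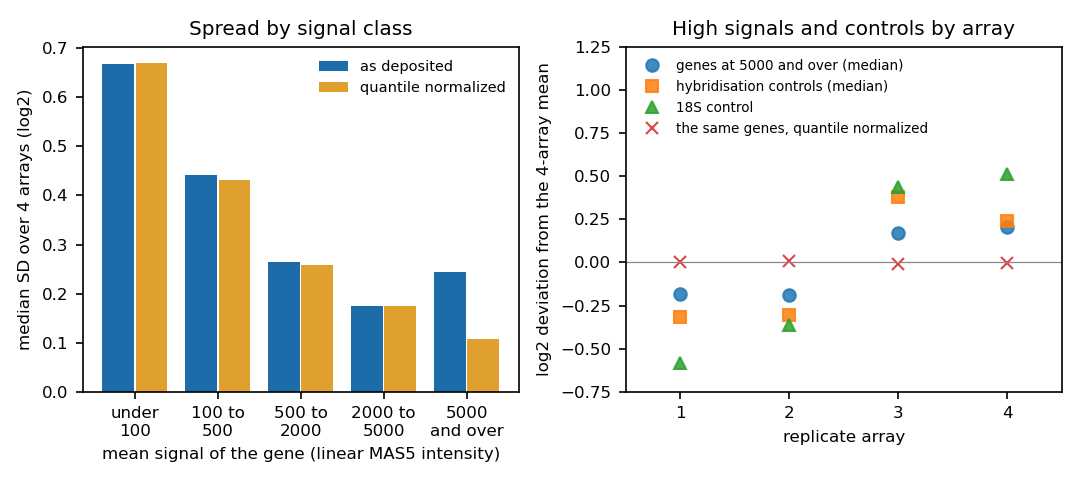
Left, median SD over the 4 arrays (log2, vertical axis) of measured genes in classes of mean signal (horizontal axis), as deposited and after quantile normalization. Right, log2 deviation from the 4-array mean on each array (horizontal axis) for the median of the 789 genes at 5000 and above, for the hybridisation and 18S controls, and for the same genes after quantile normalization. Arrays 1 and 2 lie below 0 and arrays 3 and 4 above it for genes and controls as deposited.

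An SD over 1 on the log2 scale was found in 890 measured genes, 6.97% of them, and 698 of the 890 had a mean signal under 100. The 2 largest SDs above that level were those of granzymes, granule proteases of cytotoxic lymphocytes. Gzmd had signals of 625, 2.09, 445 and 306, with an SD of 2.92. Gzmg had 1829, 21.9, 1058 and 973, with an SD of 2.77. On array 2 Gzmd was under the background of 12.3, and Gzmg was above but near it. The SD of Gzmd thus includes a value under background. Gzme had 586, 17.5, 218 and 159. Gzmf had 556, 31, 412 and 353. Gzmc, named after its values were seen, had 4917, 1300.0, 5336 and 4925. All 5 genes were lowest on array 2, and on array 1 Gzmd, Gzme, Gzmf and Gzmg were highest. Gzmb, a granzyme of the same cluster, had 2487, 1126, 2546 and 2884, again lowest on array 2 but with an SD of 0.62. These genes are close relatives, their probe sets may detect each other, and they do not count as separate observations.

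The promoters of these granzymes are shown because the genes moved together over the arrays. The windows are again the 250 bases before the RefSeq start in GRCm38.p6, all on the minus strand, Gzmd at chr14:56132594-56132843, Gzmg at chr14:56159580-56159829 and Gzmb at chr14:56262335-56262584. Capitals mark a run of 20 bases that a search found in the windows of Gzmc, Gzmd, Gzme, Gzmf and Gzmg and in no other of 32851 windows on either strand (0.0152% held it). Between these 5 windows, ungapped identity was 57.3% to 88.2%, and with the window of Gzmb it was 30.7% to 31.9%. The run marks relatedness of the sequences, and nothing about its use follows from it.
Gzmd: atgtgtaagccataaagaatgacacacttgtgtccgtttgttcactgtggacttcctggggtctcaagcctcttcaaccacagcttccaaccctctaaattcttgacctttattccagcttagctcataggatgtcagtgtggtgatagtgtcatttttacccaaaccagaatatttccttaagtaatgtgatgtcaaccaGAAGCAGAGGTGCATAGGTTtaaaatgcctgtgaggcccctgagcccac
Gzmg: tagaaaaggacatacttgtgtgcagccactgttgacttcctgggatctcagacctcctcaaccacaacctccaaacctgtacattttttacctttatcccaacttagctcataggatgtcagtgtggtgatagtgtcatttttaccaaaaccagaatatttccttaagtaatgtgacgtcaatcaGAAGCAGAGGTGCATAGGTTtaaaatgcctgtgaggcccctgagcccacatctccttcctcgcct
Gzmb: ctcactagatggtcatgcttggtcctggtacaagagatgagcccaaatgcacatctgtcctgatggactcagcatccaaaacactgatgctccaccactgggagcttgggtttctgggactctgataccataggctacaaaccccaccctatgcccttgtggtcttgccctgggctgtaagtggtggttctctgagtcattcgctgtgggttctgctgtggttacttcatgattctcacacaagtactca

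**Figure D3:**
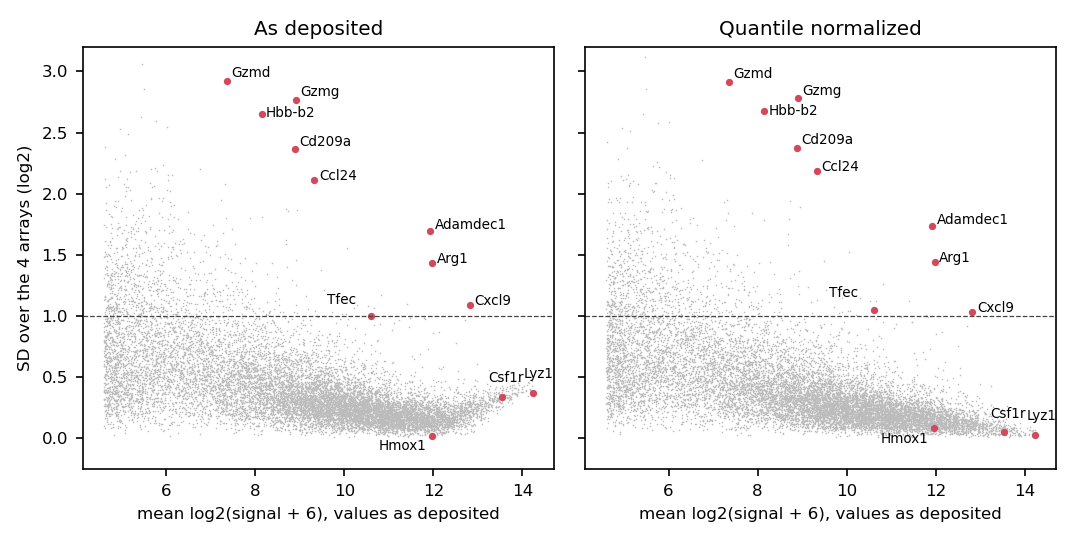
SD over the 4 arrays (log2, vertical axis) against the mean log2(signal + 6) (horizontal axis) for 12772 measured genes, as deposited and after quantile normalization, with genes of the text in red and a line at an SD of 1. Hmox1 lies at the bottom, Lyz1 and Csf1r drop from 0.37 and 0.34 to 0.032 and 0.051, and Gzmd, Hbb-b2, Cd209a, Adamdec1 and Arg1 keep SDs above 1 in both.

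By Dixon's criterion, which compares the gap next to the farthest array with the range of all 4, 1 array stood apart in 690 of 12772 measured genes (5.4%). Chance alone marks about 1 in 20, so nothing was read from that count.

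Among genes with a mean above a signal of 100, array 2 held more genes far above the other arrays than any other array did. Nearly all of its low genes there were found again after rescaling. Over all measured genes after quantile normalization it did not hold the most high genes, with 133 against 196 on array 3 and 247 on array 4. Of the 9817 genes with a mean above a signal of 100, 86 (0.876%) were over 2-fold above all other arrays on array 2 and 105 (1.07%) over 2-fold below. After quantile normalization, 67 of the 86 and 103 of the 105 were found again. The low genes included Adamdec1, with an SD of 1.70 and 1.74 after quantile normalization, Arg1, Ccl24, Cxcl9, Mmp13, Tfec, Slc7a2 and the guanylate-binding Gbp2b, which had 989.8, 57, 583 and 869. The high genes included Hbb-b2, a beta globin, which had 65.5, 4187, 108 and 180.2, the lipid enzyme Gpat3 (102 to 1589), the glycosyltransferase B3gnt5 (137 to 1979) and the antibody gene Igha (972 to 4541). Over whole lists, the mean deviation of array 2 was 1.05 for measured neutrophil genes, 1.10 for endothelial, 0.48 for cell cycle and -0.49 for T and NK cell genes (log2). The list values after quantile normalization were 1.05, 0.98, 0.44 and -0.57. In these lists array 2 was the highest array in 6 of 9 neutrophil and 7 of 12 endothelial genes, against 23.9% of all measured genes. The neutrophil gene Ltf had log2(signal + 6) values of 5.85, 7.49, 3.84 and 3.12. The endothelial gene Slco1a4 had 4.52, 8.00, 2.79 and 4.57. Such genes passed the filter on the mean through array 2, so these counts and deviations are not independent of it. The summed neutrophil signals were 18431, 24428, 24453 and 23354, with array 2 level with arrays 3 and 4. The part of other cells in the low macrophage genes was not tested.

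**Figure D4:**
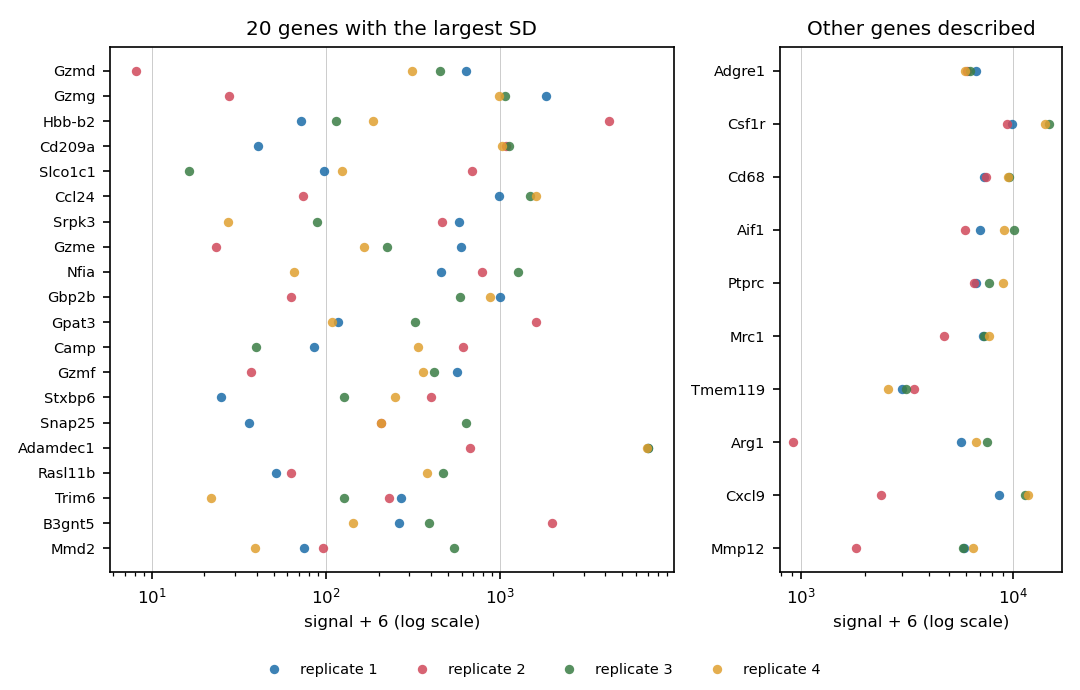
Signal plus 6 on a log axis for the 20 genes with the largest SD (left) and 10 other genes of the text (right), 1 point per array, coloured by replicate. Replicate 2 is the lowest point for Gzmd, Gzmg, Ccl24, Adamdec1, Arg1, Cxcl9 and Mmp12 and the highest for Hbb-b2, Gpat3 and B3gnt5, and replicate 1 is the lowest for Cd209a.

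Fewer genes with a mean above a signal of 100 stood above all others on arrays 1, 3 and 4 than on array 2. More stood below on array 4, as deposited. Array 1 had 30 genes (0.306%) over 2-fold above and 59 (0.601%) over 2-fold below all others. Its clearest gene was Cd209a, a lectin of dendritic cells derived from monocytes, with 34.6, 1076, 1119 and 1018, while arrays 2 to 4 lay close together. Array 1 was lowest in 6 of 9 measured astrocyte genes, against 21.2% of all measured genes, with a mean deviation of -0.86 for that list and -0.96 for the neuronal one. On array 3, 24 genes (0.244%) were above and 56 (0.57%) below, and the neuronal list deviated by 0.84. The basophil protease Mcpt8 had 19.1, 14.4, 282 and 150.5. The IgE receptor subunit Ms4a2 had 2.26, 17.5, 108 and 63.3, and both were highest on array 3. On array 4, 41 genes (0.418%) were above and 179 (1.82%) below. After quantile normalization the counts for array 4 were 58 and 107, and those for array 3 were 41 and 33, so these totals move with the scaling.

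**Figure D5:**
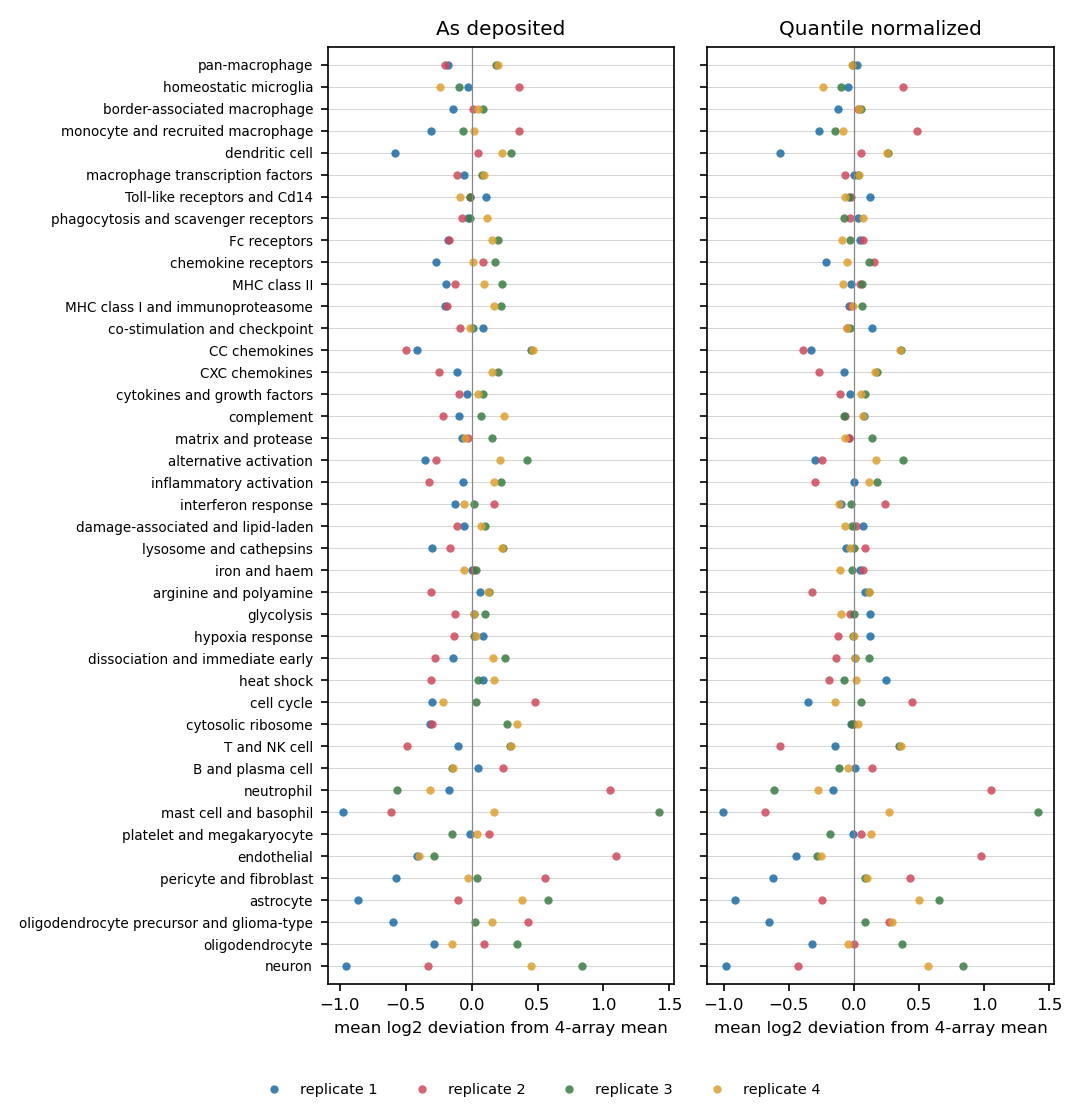
Mean log2 deviation from the 4-array mean (horizontal axis) of the measured members of each list with at least 4 of them (rows), 1 point per array coloured by replicate, as deposited (left) and after quantile normalization (right). Ribosome, lysosome and pan-macrophage lists split arrays 1 and 2 from 3 and 4 as deposited and close up on the right. The CC chemokine list keeps this split on the right (-0.33, -0.39, 0.36 and 0.35), as does alternative activation (-0.30, -0.24, 0.38 and 0.17). The endothelial list stays at 1.10 and 0.98 on replicate 2.

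The most even genes above a signal of 100 were Slc35a3, a sugar nucleotide transporter, Thumpd3 and Ncbp1, the nuclear cap-binding subunit, with SDs of 0.012, 0.014 and 0.014. Slc35a3 had 2799, 2758, 2765 and 2747. Also among the 10 smallest were the kinases Tyk2 and Fgr, the dioxin receptor Ahr and Hmox1. After quantile normalization Thumpd3 and Ncbp1 had SDs of 0.068 and 0.083, so the order of the smallest SDs depends on the scaling.

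Probe sets of 1 gene differed more than the arrays did. Of the 12772 measured genes 7624 had more than 1 probe set, and the highest and lowest differed by a median of 2.86 (log2), against a median range of 0.66 between the 4 arrays. The variable Nfia, with 450.1, 777, 1254 and 59.4, was 1 such case, and its other 5 probe sets had SDs of 0.31 to 0.67. For Cxcl9, in contrast, the second probe set was also low on array 2, with a log2 value of 7.92 against 10.90 to 11.03 on the others. For Gzmd the second gave log2 values of 9.24, 2.63, 8.45 and 8.05.

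Xist, transcribed from the inactive X chromosome of female cells, had 4958, 5669, 6465 and 7424, while the Y-linked Uty (1.07 to 8.11) and Kdm5d (1.84 to 9.7) were above background on no array. Eif2s3y, also Y-linked, had 17.3, 6.45, 10 and 18.3, above background on 2 arrays and close to it on both.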

How the data were processed

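RNA of sorted macrophages was measured on 1-colour Affymetrix arrays. The authors deposited 1 linear intensity per probe set and array, made with MAS5 per the submitters' processing notes; no version is given in the sources used here. The intensities were taken as deposited, since no scanner files were used. Symbols came from the platform annotation: 64 of 45101 probe sets were controls, 34945 had 1 symbol, 932 several and 9160 none. Of the gene IDs, 162 had no RefSeq match and kept the annotation's symbol. The pseudocount of 6 was the 20th percentile of all values on the 7 arrays of the study, the only use of the normal brain arrays.

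The members, lists and alternatives were chosen with earlier results of these data known. The 45 lists named 501 genes, of which 455 were found, and the others were not analysed here. Genes named in the text are the 20 highest means, the 20 largest and 10 smallest SDs above a signal of 100, per list the 3 highest, the largest SD and the members above background on no array, and a set of fixed markers. Ribosomal, elongation factor, mitochondrial, clone and predicted symbols were left out of the first 3 of these. Other list members were named after their values were seen. No test was made, because there is 1 group. A gene or list had 1 array apart where the gap to its nearest neighbour took up most of the range of the 4 arrays, by Dixon's criterion at 95%. The procedure was checked on simulated data, with the same spread for all genes and shifts many times that spread. That check says little about smaller gaps. Alternatives changed the pseudocount, scaling, probe set per gene, background level and arrays used. Python 3.11.15, numpy 2.4.6, pandas 2.3.3 and matplotlib 3.10.9 were used.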

Additional observations from a re-analysis of the deposited data

Results flagged for a closer look

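In a group of 4 arrays, 1 array stood apart by Dixon's criterion in 690 of 12772 measured genes (5.4%), and chance alone marks about 1 in 20. Of the genes named by rule, 20 of 213 were marked, and of the lists 2 of 45. Many of these genes were named for a large SD, so their share is no comparison with the background.

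Replicate 2 was the low array in most of them. Its log2(signal + 6) was 3.016 for Gzmd, 4.801 for Gzmg, 5.21 for Gzmf and 10.15 for Gzmb, which are related granzymes. It was 6.198 for the chemokine Ccl24, 9.383 for the protease Adamdec1, 10.83 for the elastase Mmp12 and 9.835 for Arg1. It was 11.31 for the receptor Mertk, 12.21 for the mannose receptor Mrc1, 9.104 for the transcription factor Tfec and 9.899 for the antibody heavy chain Ighm. The mean deviation of the arginine and polyamine list on replicate 2 was -0.311 (log2), although replicate 2 was the lowest array in 2 of its 10 measured genes and the highest in 3. That of the endothelial list was 1.098, with replicate 2 highest in 7 of 12 genes, against 23.9% of all measured genes. Above background on all arrays were 7 of these 12, against 64.3% of all genes.

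Replicate 1 was the low array for Cd209a, at a log2 value of 5.345, and, by far smaller distances, for S100a6 at 12.06, Cd14 at 12.91, the myelin enzyme Cnp at 11.42 and Ncbp1 at 9.752. The signals of Ncbp1 were 856, 872, 874 and 875, so its distance is a matter of a very small spread. Clic6 at 3.943 and the Y-linked Kdm5d at 3.972 were highest on replicate 4, and Foxj1 at 3.877 was highest on replicate 2. These 3 genes were above background on no array.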

How the results depend on the processing

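The number of genes above background on all arrays (11704) was 9090 to 12317 over the alternatives, the overlap of the 100 highest genes (72) was 72 to 81, and the number with 1 array apart (690) was 520 to 708; the last could not be computed with 3 arrays. The median SD of 0.33 was 0.296 with a pseudocount of 32, 0.311 after quantile normalization, 0.348 with each array centred on its median, 0.349 without probe sets named as possibly unspecific, 0.276 with background at a signal of 100, and 0.307 to 0.312 with 1 array left out. The 890 genes with an SD over 1 became 231 with a pseudocount of 32, 551 with the mean of all probe sets of a gene and 192 with background at 100. Of the 213 genes named by rule, the SD of 89 moved over 1.5 times under quantile normalization and that of 47 without replicate 2. The level of 67 moved with the mean of all probe sets, and that of none under quantile normalization or with 1 array left out. Median percentiles of lists moved by a median of 2.36 and at most 13.5 points with the mean of all probe sets. They moved by a median of 2.73 and at most 11.2 points without probe sets named as possibly unspecific. With replicate 2 left out they moved by at most 10.4 points. Without replicate 2, an alternative chosen after seeing the data, the members in the top 5% went from 1 to 2 for Toll-like receptors and from 2 to 5 for matrix genes and proteases. Other lists changed too, among them heat shock from 4 to 6 and monocytes and recruited macrophages from 6 to 4. No paired analysis was possible because there was 1 group and no test. Signals under 100 carry most large SDs, so spread in low genes is the least certain.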

Other observations

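Genes known from dendritic cells, which present antigen to T cells, had a median percentile of 71.0. Above background on every array were 9 of 9, against 64.3% of all genes. Itgax, the integrin CD11c that macrophages also carry, had 7762, 6629, 9522 and 8936. Flt3, a growth factor receptor of dendritic cells, had 624, 721, 644 and 645. Ccr7, through which mature dendritic cells reach lymph nodes, had 1828, 2987, 3958 and 3008, and Irf4, a transcription factor of the lineage, had 948, 2026, 2223 and 1494. Both were lowest on array 1, the array on which Cd209a was low, whereas Xcr1 of cross-presenting cells was low on every array (21.9 to 41.3).

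Stromal genes lay near the middle of all genes. The pericyte and fibroblast list had a median percentile of 50.6, with 6 of 12 genes under the median of all genes. Of the 12 genes 11 were above background on all arrays, against 64.3% of all genes. Their sums were 3272, 5115, 4198 and 3331, highest on array 2. The collagen gene Col1a1, the highest of the list, had 1392, 1630.0, 844 and 598. Col3a1, next in the list, had 789.9, 1138, 1050.1 and 751. In the platelet list, Pf4, which macrophages also make, carried nearly all of the sums of 5374, 5044, 5423 and 6086, while Gp9, a platelet surface protein, ranged from 40.8 to 64. Genes of B and plasma cells were led by Jchain, the joining chain of secreted antibody (1025 to 1919), and by Cd22, a lectin also reported on microglia (997 to 2302), with Pax5, which defines B cells, above background on 1 array. Of the 9160 probe sets without a gene symbol, 3234 (35.3%) were above background on all 4 arrays, and the highest of them stood at percentile 99.9 of the gene means.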
